A study of Homo sapiens with 4 samples.

Results

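Radiation alone was compared with no treatment in A549 tumors carried by sedentary mice. A549 is an established human lung adenocarcinoma line and a common model of non-small cell lung cancer (NSCLC). The comparison used 2 of the 4 RNA sequencing libraries of the study, the radiation library and the control library, and 19393 of the 38137 genes in the count files, those with a mean of at least 20 reads over the 4 libraries. The cells had been injected into the flank of male BALB/c athymic nude mice aged 6 weeks, which lack T cells, with 5 mice in each group. In the radiation-alone group the flank received 6 MV X-rays at 2 Gy per session, 3 sessions a week for 2 weeks, and the mice were not exercised. Control mice received neither treatment. The exercise group ran on a treadmill without radiation, and the combination group ran before each irradiation. All 4 groups carried the same tumor line in the same strain of mouse. Each group was represented by 1 library, and whether that library came from 1 tumor or from several pooled tumors is not given in the sources used here. A ratio between libraries therefore has no replicate check, no p-value was computed, and each 95% interval below covers counting error in the reads only.

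Ionizing radiation breaks DNA, and the break-sensing kinases ATM and ATR stabilize the transcription factor p53. p53 switches on genes that stop the cell cycle, repair DNA, change metabolism or kill the cell, and it switches on its own inhibitor MDM2. One of its targets, the CDK inhibitor p21 (gene CDKN1A), keeps the retinoblastoma family proteins active, and these hold genes of DNA replication and mitosis silent. Fractionated radiotherapy gives the dose in small portions over days or weeks, so that surviving cells pass through repeated rounds of damage and repair.

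The 4 libraries held 33432637 to 35408705 reads assigned to genes, and the TMM scaling factors lay between 0.979 and 1.032. Mitochondrial transcripts took 6.22% of the control library and 7.04% of the radiation library. The tumor line was readily recognized, since the summed level of its 13 marker genes was 15077 CPM (reads scaled to library size) in control and 14583 CPM in radiation, and CDKN2A, which A549 has lost, gave 1 read in control and 0 in the other libraries. MTAP, the neighbour of CDKN2A that was listed as lost with it, had 328 reads in control, 352 in exercise, 290 in radiation and 252 in combination, so that 1 marker went against its listing. The exercise library stood apart in several gene groups. It had the lowest level of 41 of 45 interferon-stimulated genes and 16 of 18 antigen presentation genes, against 26.8% of all genes compared. It had the highest level of 61 of 62 G2/M genes and 47 of 52 G1/S and replication genes, against 29.7% of all genes compared. Levels are given as TMM-scaled CPM throughout, and a gene was called when the ratio of radiation to control was at least 2-fold in either direction. A bare value in parentheses after a gene is its log2 ratio of radiation to control.

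Most transcripts were little changed after the radiation course. The median log2 ratio over the 19393 genes was 0.001, and 89.8% of genes lay within 1.5-fold of control. The 2-fold threshold was passed upward by 366 genes, 1.89% of those compared, and downward by 174, or 0.897%. Upregulated genes thus made up 67.8% of the calls, a share that fell to 57.6% (314 higher, 231 lower) when libraries were scaled by their total counts, which placed the median of all genes at -0.07. The imbalance grew with the size of the change: at 4-fold or more, 63 genes were upregulated and 6 downregulated, and at 8-fold or more the numbers were 24 and 2. These counts include skeletal muscle genes and overlapping genes of the myosin cluster, which were among the largest ratios. Counts at 4-fold and 8-fold without them were not made. Many called genes were shallow, with a median mean count of 81 among the higher and 47 among the lower genes, against 690 over all genes. The counting interval lay wholly past 2-fold for 166 of the higher and 24 of the lower genes. Of the genes near the minimum of 20 reads, the 5 just inside it, among them SNORD77, had log2 ratios from -0.79 to 0.95, and the 5 just outside, among them UBASH3A and PNCK, from -1.61 to 1.02.

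**Figure D1:**
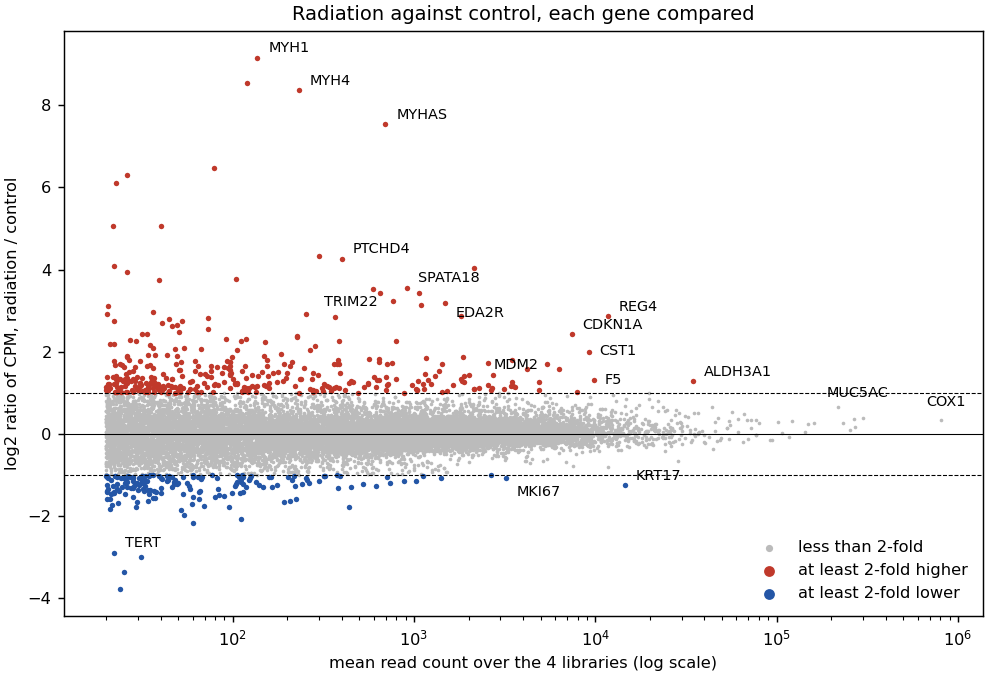
Log2 ratio of radiation to control (vertical axis) against the mean read count over the 4 libraries (horizontal log axis) for each of the 19393 genes compared, 1 point per gene. Red points are the 366 genes at least 2-fold higher, blue points the 174 at least 2-fold lower, and dashed lines mark 2-fold. The called genes CDKN1A, MDM2, REG4 and CST1 are deep as well as changed, and most blue points sit at low counts.

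Genes that p53 induces were higher across the pathway. In 4 lists of p53-induced coding genes, 25 of 90 compared members were at least 2-fold higher and 0 were lower, 82 were above 0 (79 with total-count scaling), and the median log2 ratio was 0.57, against 1.89% higher and a median of 0.001 over all genes. CDKN1A, which encodes p21, was at 60.6 CPM in control, 79.6 in exercise, 327 in radiation and 408 in combination. The radiation level was 5.39-fold higher than control (95% counting interval 5.15 to 5.65), and both irradiated libraries were high while both unirradiated libraries were low. MDM2, the ubiquitin ligase that degrades p53, stood at 91 CPM in control, 83.7 in exercise, 272 in radiation and 290 in combination, a 2.99-fold difference between radiation and control. The carboxypeptidase gene CPM, on the opposite strand with an overlapping span, was 2.96-fold higher, and how reads in the overlap were assigned is uncertain.

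Of the 23 genes of arrest and feedback, 10 were at least 2-fold higher and the median log2 ratio was 0.89. The largest ratio belonged to TRIM22, an interferon- and p53-induced TRIM protein, at 4.26 CPM in control, 2.0 in exercise, 40.5 in radiation and 43.9 in combination. That is 9.51-fold higher than control (95% counting interval 8.04 to 11.3), with the 2 unirradiated libraries both under the 2 irradiated ones. ZMAT3, an RNA-binding regulator of splicing, was 3.62-fold higher, and the antiproliferative gene BTG2 2.75-fold. PHLDA3, which blocks AKT at the membrane, TP53INP1, the sestrins SESN1 and SESN2, which restrain mTORC1, and the ribosomal protein paralog RPS27L were between 2.26-fold and 2.70-fold higher. Several classic damage genes lay below the threshold, with log2 ratios of 0.88 for GADD45A, 0.89 for the phosphatase PPM1D and 0.78 for CCNG1. MDM4, the second p53 inhibitor, was at -0.09 and BTG1 at -0.01.

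Among 21 compared p53 targets of cell death, 6 were at least 2-fold higher, with a median of 0.44. SPATA18 (also called MIEAP), which acts in mitochondrial quality control, was at 4.59 CPM in control, 3.85 in exercise, 54.1 in radiation and 44.9 in combination, or 11.8-fold higher than control (95% counting interval 10 to 13.9). EDA2R, the TNF-family receptor for ectodysplasin A2, was at 8.85 CPM in control, 7.67 in exercise, 80.8 in radiation and 77.7 in combination, or 9.13-fold higher than control (95% counting interval 8.13 to 10.3). FAS, the receptor of the extrinsic death pathway, was at 7.42 CPM in control, 7.84 in exercise, 35.7 in radiation and 42.8 in combination, or 4.81-fold higher than control (95% counting interval 4.21 to 5.51). In all 3 genes the 2 unirradiated levels were close together and far below the irradiated ones. The mitochondrial pore protein BAX was 2.70-fold higher, the nuclease AEN 2.39-fold and BBC3 (PUMA) 2.11-fold. PMAIP1 (NOXA), in contrast, had a log2 ratio of -0.29, TP53I3 of 0.01 and APAF1 of 0.12, and the death receptor TNFRSF10B reached only 0.62. A separate list of 28 compared BCL2-family, caspase and IAP genes had a median of -0.02 and ran from -0.73 to 1.29. CASP1 was the 1 called gene, at 14 reads in control, 13 in exercise, 34 in radiation and 55 in combination. Anti-apoptotic BCL2L1 was at a log2 ratio of 0.54 and pro-apoptotic BCL2L11 (BIM) at -0.73.

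The repair and metabolism targets held 5 higher genes of 23, with a median of 0.57. DDB2, the damage-recognition protein of nucleotide excision repair, was at 32.2 CPM in control, 41.3 in exercise, 107 in radiation and 120 in combination, or 3.32-fold higher than control (95% counting interval 3.11 to 3.55). The alkaline ceramidase ACER2 was 3.38-fold higher, the mitochondrial reductase FDXR 2.32-fold, the glycolysis regulator TIGAR 2.07-fold and the diacylglycerol kinase DGKA 2.01-fold. Below the threshold lay RRM2B, which supplies nucleotides for repair (0.81), the translesion polymerase POLH (0.78) and XPC (0.52). PRODH, the proline dehydrogenase that p53 induces in mitochondria, stood outside the lists and was 2.11-fold higher.

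Of 23 compared membrane and secreted targets, 4 were at least 2-fold higher, with a median of 0.50. The stress cytokine GDF15 was at 40.3 CPM in control, 53.5 in exercise, 139 in radiation and 178 in combination, or 3.45-fold higher than control (95% counting interval 3.25 to 3.66). ABCA12, a lipid transporter, was 7.17-fold higher than control (95% counting interval 5.79 to 8.95), INPP5D (SHIP1), a phosphatase usually confined to blood cells, 6.01-fold higher than control (95% counting interval 3.77 to 10.1) at low counts, and CYFIP2 2.47-fold. TLR3, a receptor for double-stranded RNA, had a log2 ratio of 0.85, and SERPINB5 (maspin) was the lowest at -0.30.

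**Figure D2:**
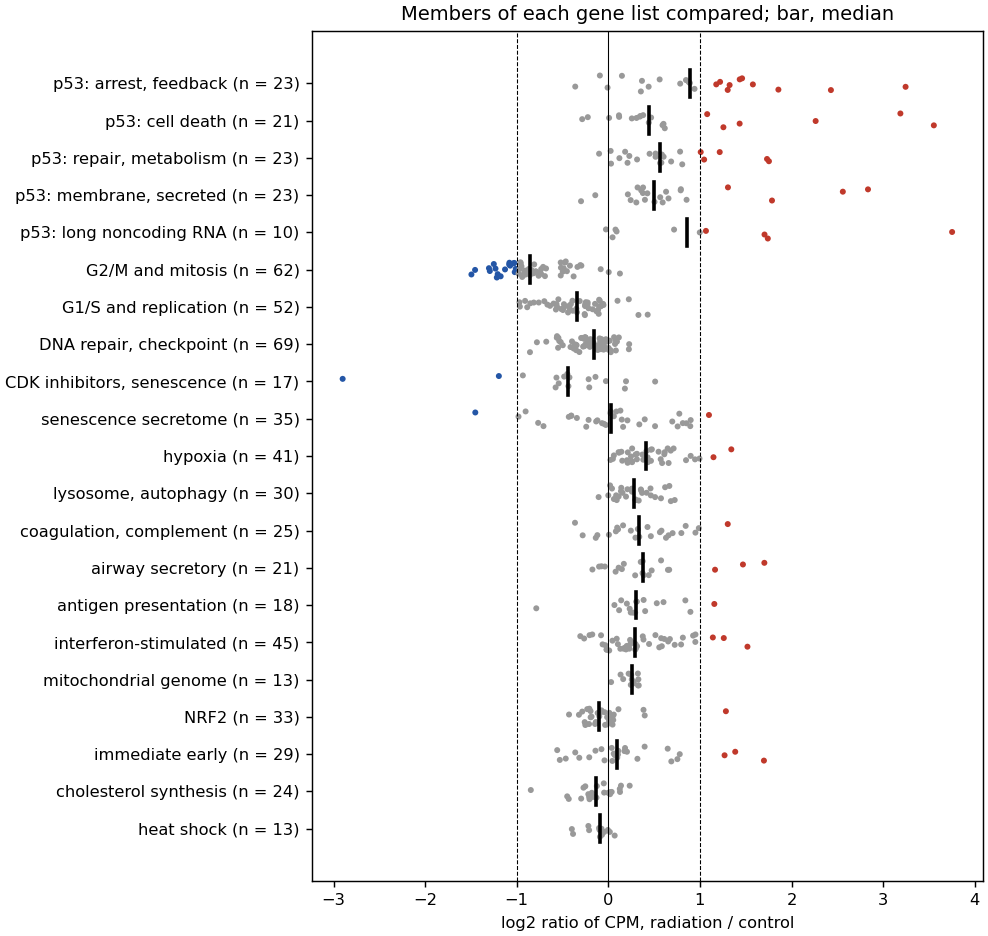
Log2 ratio of radiation to control (horizontal axis) for each compared member of 21 gene lists (rows), 1 point per gene, with the list median as a black bar and 2-fold as dashed lines. Red points are at least 2-fold higher and blue points at least 2-fold lower. The p53 lists lie to the right with medians from 0.44 to 0.89, and the G2/M list lies to the left with a median of -0.85.

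Long noncoding RNAs of the pathway moved with the coding targets, with 4 of 10 compared at least 2-fold higher and a median of 0.86. PURPL, which restrains p53, was at 83.5 CPM in control, 76.3 in exercise, 272 in radiation and 201 in combination, or 3.26-fold higher than control (95% counting interval 3.13 to 3.4). LNCTAM34A and MIR34AHG, the 2 transcripts around the tumor-suppressor microRNA gene MIR34A, were 3.35-fold and 2.09-fold higher. PINCR had 7 reads in control, 5 in exercise, 98 in radiation and 47 in combination, and DINOL, a short p21-linked transcript under the read minimum, had 0 reads in control, 0 in exercise, 7 in radiation and 4 in combination. MEG3, an imprinted transcript, was just under the threshold at 1905 reads in control, 2644 in exercise, 3707 in radiation and 3479 in combination, whereas NEAT1, the scaffold of paraspeckles, stayed at a log2 ratio of 0.08. Below a set of muscle genes, the next largest ratio was that of the uncharacterized locus LOC105377329 on chromosome 4, at 33 reads in control, 37 in exercise, 660 in radiation and 464 in combination. It was followed by PTCHD4, a patched-domain membrane protein reported as a p53 target, at 1.32 CPM in control, 1.1 in exercise, 25.5 in radiation and 19.2 in combination, or 19.4-fold higher than control (95% counting interval 14.4 to 26.6).

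A few of these genes hold the letters of a complete p53 response element, that is 2 half-sites of 10 bases, at or near their start. The RefSeq promoter table (GRCh38.p14, 250 bases before to 50 bases after each start) covered 14071 of the genes compared, and both strands were searched for 2 half-sites of the standard consensus with a spacer of at most 13 bases. It was found at 7 of these genes, or 0.0497%, at 10 of all 35116 promoters in the table, at 4 of the 225 higher genes with a promoter and at 0 of the 106 lower ones. The 4 higher genes are shown because they are the called genes whose own window holds these letters, with the half-sites in capitals. Binding was not tested. PTCHD4 is at chr6:48111198-48111237 on the minus strand, PURPL at chr5:27472145-27472204 and LNCTAM34A at chr1:9182124-9182183 on the plus strand, all before the start, and DDB2 at chr11:47214975-47215003 on the plus strand, just after it.
PTCHD4: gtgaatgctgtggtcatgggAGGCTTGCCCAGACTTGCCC
PURPL: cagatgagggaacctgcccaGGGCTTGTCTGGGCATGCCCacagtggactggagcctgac
LNCTAM34A: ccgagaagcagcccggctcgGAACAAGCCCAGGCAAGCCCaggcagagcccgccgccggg
DDB2: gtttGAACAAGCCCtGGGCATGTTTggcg
The first 3 have no spacer between the half-sites and DDB2 has 1 base. The other 3 matches were at genes with small differences, DYNC2H1 (log2 ratio 0.23, spacer 12), MCC (0.21, spacer 7) and LOC105376065 (0.29, spacer 0), so the letters were also present where little changed. A single half-site was more widespread, at 14.7% of the higher, 8.49% of the lower and 7.97% of all compared genes with a promoter. Windows without the letters, such as those of CDKN1A and MDM2, say only that these letters are not in them.

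**Figure D3:**
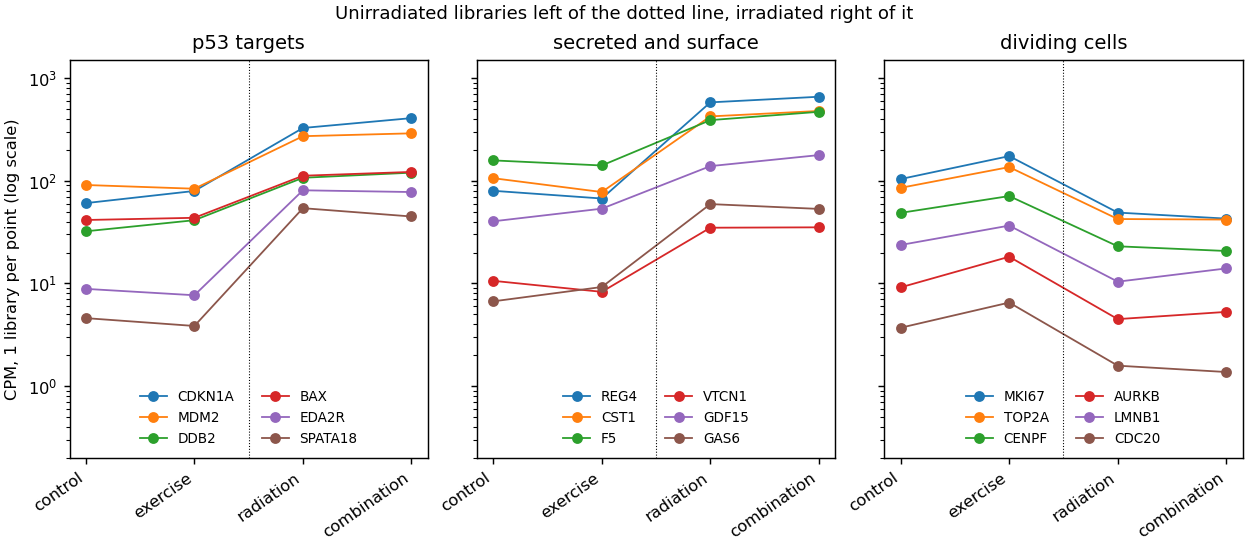
CPM (vertical log axis) of 18 genes in the 4 libraries (horizontal axis), 1 point per library, with lines joining the points of 1 gene. The p53 targets and the secreted and surface genes are higher in radiation and combination than in control and exercise, and the genes of dividing cells are lower in both. The exercise library has the highest level of MKI67, TOP2A and CENPF.

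Genes of mitosis were lower across the list. Of 62 G2/M genes, 17 were at least 2-fold lower and 0 higher, 60 were below 0, and the median log2 ratio was -0.85, against 0.897% lower over all genes. MKI67, the Ki-67 antigen of cycling cells, was at 104 CPM in control, 174 in exercise, 49 in radiation and 42.8 in combination. Radiation was 2.11-fold lower than control (95% counting interval 2.0 to 2.24), and the 2 irradiated libraries lay below both unirradiated ones. TOP2A, the topoisomerase that untangles chromosomes before division, was at 85.4 CPM in control, 136 in exercise, 42.4 in radiation and 41.9 in combination, or 2.02-fold lower in radiation than in control. In a bulk tumor, fewer dividing cells and less of these transcripts per cell cannot be told apart. The strongest decreases were at low counts, in CDC25C, the phosphatase that triggers mitosis (108 reads in control, 139 in exercise, 37 in radiation and 53 in combination), and in NDC80 of the kinetochore (136 reads in control, 193 in exercise, 48 in radiation and 64 in combination). The separase ESPL1, the centromeric histone CENPA, UBE2C, the ubiquitin-conjugating enzyme of the anaphase-promoting complex, and CDC20, an activator of that complex, were between 2.34-fold and 2.45-fold lower. The checkpoint kinases TTK, AURKB and BUB1B were 2.27-fold, 2.04-fold and 2.03-fold lower. CDK1 (-0.85), CCNB1 (-0.73), FOXM1 (-0.71) and PLK1 (-0.42) fell short of 2-fold, and BUB3 (0.00) and SPC25 (0.13) were the 2 members not below 0, BUB3 turning negative with total-count scaling. Outside the lists, the DNA helicase PIF1 was 3.17-fold lower, SKA3 2.70-fold, TROAP 2.52-fold and KIF18B 2.34-fold, all 4 picked after their values were seen.

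The sequence TTTGAA is the core of the cell cycle homology region, an element near the start of many late cell cycle genes that the p53-p21-retinoblastoma family axis uses to silence them. On either strand it was present at 71.2% of the 52 G2/M genes with a promoter in the RefSeq table, at 28.3% of the 106 lower genes, at 16.9% of the 225 higher genes and at 14.9% of all 14071 compared genes. Over all 35116 promoters of the table the share was 15.2%. TTTGAA together with CCAAT, the NF-Y box, was found at 55.8% of the G2/M genes, 16.0% of the lower genes and 6.02% of all compared genes. The variant TTCGAA was rare, at 5.77% of the G2/M genes, 1.89% of the lower and 2.25% of all compared genes. Of the 42 G1/S genes with a promoter, which as a group were less reduced, 1 held TTTGAA (2.38%). The G2/M list was assembled from known cell cycle genes, so its share describes that class and is not a finding of these libraries. Stretches before the start of 5 genes that were at least 2-fold lower are shown, with TTTGAA (or TTCAAA, its reverse complement) and CCAAT (or ATTGG) in capitals. In MKI67 an ATTGG shares its A with the TTTGAA nearest the start, and its other letters are in lower case. They lie at chr1:43358862-43358941 (CDC20, plus strand), chr5:138331809-138331888 (CDC25C, minus), chr10:128126427-128126506 (MKI67, minus), chr12:53268214-53268293 (ESPL1, plus) and chr17:40418022-40418101 (TOP2A, minus).
CDC20: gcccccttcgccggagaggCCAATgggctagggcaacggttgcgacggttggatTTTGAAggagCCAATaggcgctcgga
CDC25C: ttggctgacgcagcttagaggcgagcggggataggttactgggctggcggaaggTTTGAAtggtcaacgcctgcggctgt
MKI67: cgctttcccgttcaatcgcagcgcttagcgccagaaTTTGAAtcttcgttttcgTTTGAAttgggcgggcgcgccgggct
ESPL1: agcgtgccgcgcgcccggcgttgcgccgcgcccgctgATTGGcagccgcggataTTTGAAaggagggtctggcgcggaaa
TOP2A: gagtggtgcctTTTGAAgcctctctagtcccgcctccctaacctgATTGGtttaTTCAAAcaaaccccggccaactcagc
The copy nearest the start in each stretch begins 65 bases before it in CDC20, 30 in CDC25C, 29 in MKI67 and 31 in ESPL1, and 151 in TOP2A. MKI67 and TOP2A show 2 copies each in these stretches. The genes shown were chosen because they hold the element: AURKB, NCAPH and CENPE, also at least 2-fold lower, had no TTTGAA in their windows, CENPF had it only after the start, and CDC25C lacked it at 2 of its 4 annotated starts.

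Genes of DNA replication and the G1/S step were reduced less, with a median of -0.35 over 52 members, 48 of them below 0 and none at 2-fold. CDC45, a part of the replicative helicase, was at 5.8 CPM in control, 8.25 in exercise, 2.96 in radiation and 2.5 in combination, a log2 ratio of -0.97, and ORC6 of the origin complex was at -0.97. The MCM helicase subunits ran from -0.60 for MCM5 to -0.39 for MCM4, and the nucleotide enzyme RRM2 was at -0.89. PCNA (0.22) and TYMS (0.43) were above 0, as was the G1 cyclin CCND1 (0.33). DNA repair and checkpoint genes showed a small shift, with a median of -0.16 over 69 members and none called. The lowest included BLM at -0.86, RAD51AP1 at -0.78, CHEK1 at -0.56 and BRCA1 at -0.50, while the damage kinases ATM (0.02) and ATR (0.08) and the end-joining protein LIG4 (0.08) were close to 0.

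Lamin B1 and telomerase were the called genes among 17 CDK inhibitors and senescence markers. LMNB1, a nuclear lamina protein that is lost in senescent cells, was at 23.7 CPM in control, 36.6 in exercise, 10.4 in radiation and 14 in combination, or 2.29-fold lower than control (95% counting interval 2.02 to 2.6). Reads of TERT, the telomerase reverse transcriptase, were scarce, with 34 reads in control, 49 in exercise, 4 in radiation and 2 in combination. The chromatin protein HMGB2 had a log2 ratio of -0.93, and GLB1, the enzyme behind senescence-associated beta-galactosidase staining, one of 0.51. CDKN1B (p27) was at -0.58, so p21 was the CDK inhibitor that was higher, and CDKN2A and CDKN2B had at most 1 read in any library. The secretome attributed to senescent cells was not raised as a group. Over 35 members the median was 0.03, and CXCL8 (-0.34), CCL2 (-0.40) and ICAM1 (-0.77) were below 0. IL6 gave 2 reads in control and 1 in radiation. IGFBP6 was the 1 higher member at 2.14-fold, CCL20 the 1 lower member at 29 reads in control, 34 in exercise, 10 in radiation and 15 in combination, and TIMP1 (0.78) was above 0.

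Beyond p53 targets, several abundant genes of mucosal and glandular secretion were higher. These genes were picked after their values were seen. REG4, a lectin secreted by intestinal and gastric tumors, was at 79.9 CPM in control, 67.2 in exercise, 581 in radiation and 659 in combination, or 7.28-fold higher than control (95% counting interval 7.0 to 7.57). Both irradiated libraries exceeded both unirradiated ones by a wide margin. The salivary cystatins CST1, CST2 and CST4, near-identical neighbours on chromosome 20 between which reads may be split, were 4-fold, 4.42-fold and 4.83-fold higher, and CST1 was at 106 CPM in control, 77.7 in exercise, 424 in radiation and 479 in combination. GAS6, the ligand of the AXL receptor kinases, was at 6.69 CPM in control, 9.23 in exercise, 59.3 in radiation and 53.2 in combination, or 8.86-fold higher than control (95% counting interval 7.74 to 10.2), and its antisense neighbour GAS6-AS1 was 10.9-fold higher. The spans of GAS6 and GAS6-AS1 overlap and the strand setting of the counting is unknown, so their reads cannot be told apart. The lectin ITLN1 had 18 reads in control, 16 in exercise, 126 in radiation and 132 in combination, and the trefoil peptide TFF2 was 3.15-fold higher. TCN1, which binds vitamin B12, was 2.03-fold higher and its plasma relative TCN2 2.15-fold. The prolactin-induced protein PIP, the lipid-binding AZGP1, the hydrogen peroxide-producing oxidase DUOX2 and the phospholipase PLA2G2A were between 2.15-fold and 4.18-fold higher. In the list of airway secretory and epithelial genes 3 of 21 were called higher, BPIFB1 (3.26-fold), the antibody transporter PIGR (2.77-fold) and lipocalin LCN2 (2.24-fold), and the list median was 0.37.

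The mucins of A549 split by how far they moved. MUC2, the gel-forming mucin of the intestine, was at 27.4 CPM in control, 36.8 in exercise, 100 in radiation and 54.1 in combination. Its radiation level was 3.65-fold higher than control (95% counting interval 3.4 to 3.92), and the radiation library was the highest of the 4. MUC19 was 5.01-fold higher at 41 reads in control, 31 in exercise, 200 in radiation and 94 in combination. The far more abundant airway mucins MUC5AC and MUC5B were 1.30-fold and 1.28-fold higher, but in combination against exercise their log2 ratios were -0.11 and -0.31, so the direction turned. The mucosal adhesion protein CEACAM6 was 1.57-fold higher, with a log2 ratio of 0.83 in the second pair.

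Genes of plasma proteins were mostly above 0 but below the threshold, with 21 of 25 coagulation and complement genes above 0 (20 with total-count scaling), a median of 0.34 and 1 call. Coagulation factor F5 was at 158 CPM in control, 141 in exercise, 390 in radiation and 470 in combination, or 2.47-fold higher than control (95% counting interval 2.39 to 2.55). SERPINA1, the antitrypsin gene, had a log2 ratio of 0.99, vitronectin VTN 0.95, clusterin CLU 0.84, and the fibrinogen chains FGA, FGB and FGG 0.66, 0.43 and 0.56. Outside the list, transthyretin (TTR) was 3.56-fold higher and the corticosteroid-binding globulin SERPINA6 2.11-fold. Both these genes were picked after their values were seen.

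Of 19 compared genes of ligands that NK and T cells read, 2 were at least 2-fold higher, TNFSF9 and VTCN1, and 0 lower. Over all genes 1.89% were higher. TNFSF9, the 4-1BB ligand, was at 4.79 CPM in control, 5.3 in exercise, 16.6 in radiation and 18 in combination, or 3.46-fold higher than control (95% counting interval 2.92 to 4.13). The inhibitory B7 family member VTCN1 (B7-H4) was at 10.6 CPM in control, 8.28 in exercise, 34.9 in radiation and 35.2 in combination, or 3.29-fold higher than control (95% counting interval 2.93 to 3.7). Both genes were high in both irradiated libraries. CD70, another TNF-family ligand, was 3.75-fold higher and HHLA2 2.36-fold, the latter pair picked after their values were seen. The other checkpoint and NK ligands differed less: CD274 (PD-L1) had 59 reads in control, 68 in exercise, 97 in radiation and 94 in combination, MICA a log2 ratio of 0.26 and MICB -0.69, and the median of the 19 compared was 0.20. In combination against exercise the median of the 19 was -0.03, with 9 above 0 and 10 below. There 2 were at least 2-fold higher and 1 lower.

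MHC class I genes, which present peptides to T cells, were higher than control in nearly every case, with 17 of 18 antigen presentation genes above 0 (16 with total-count scaling) and a median of 0.30. The exercise library had the lowest level of 16 of the 18, against 26.8% of all genes compared. The combination library had the highest level of 16, against 27.2%. In combination against exercise the median was 0.60, with 5 genes at least 2-fold higher, so the size of the difference depended on the pair. HLA-B was at 57.7 CPM in control, 43.4 in exercise, 129 in radiation and 175 in combination and was the 1 gene past 2-fold, at 2.23-fold. HLA-C had a log2 ratio of 0.90 and B2M of 0.84. The HLA class I genes are close paralogs, so reads may have been exchanged among them. HLA-G, the placental form, was the exception at -0.79 on 73 reads in control, 81 in exercise, 41 in radiation and 117 in combination.

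Interferon-stimulated genes were modestly higher, with 36 of 45 above 0 (34 with total-count scaling), a median of 0.29 and 3 calls. CMPK2, OAS2 and MX2 were the called genes, OAS2 at 10.9 CPM in control, 3.62 in exercise, 24 in radiation and 23.6 in combination, a 2.21-fold difference. IFI6 (0.72), IFIT2 (0.93) and ISG15 (0.58) were above 0, whereas IFI44L (-0.08), OAS1 (-0.06), OAS3 (-0.18) and IFIH1 (-0.02) were near or below it. The sensors were flat, with a median of 0.07 over 12 genes and CGAS lowest at -0.61, and among 4 compared APOBEC3 deaminases APOBEC3C was highest at 0.77 and APOBEC3B lowest at -0.70. The exercise library carried the lowest level of many of these genes, such as IFI44L at 3.92 CPM in control, 0.289 in exercise, 3.71 in radiation and 2.75 in combination. In combination against exercise, 24 of the 45 were at least 2-fold higher, with a median of 1.10, so the size of the difference depended on the unirradiated library used.

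Hypoxia and glycolysis genes were higher by a small amount. All 41 compared members had a log2 ratio above 0, or 38 with total-count scaling, under which VEGFA, ANKRD37 and STC1 turned negative. The median was 0.42, and 2 were past 2-fold, the hexokinase HK2 at 2.22-fold and the secreted STC2 at 2.54-fold. The control library had the lowest level of 32 of the 41 genes, against 20.4% of all genes compared. Both irradiated libraries lay at least 2-fold above both unirradiated ones in 0 of the 41, against 0.841% of all genes compared. In combination against exercise 35 were above 0 and 6 below, with a median of 0.32. CA9, the carbonic anhydrase used as a hypoxia marker, was at 38.8 CPM in control, 36.1 in exercise, 69.8 in radiation and 92.6 in combination, a log2 ratio of 0.85. HIF1A, the oxygen-regulated transcription factor itself, was at 154 CPM in control, 181 in exercise, 218 in radiation and 197 in combination, a log2 ratio of 0.50. The prolyl hydroxylase EGLN3 (0.95) and PGK1 (0.61) lay in the upper part of the list and VEGFA (0.02) and ENO1 (0.11) at its lower end. A list of vessel growth and guidance genes had a median of 0.04 over 26 genes, with SEMA3E the 1 call at 2.34-fold.

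Lysosomal and mitochondrial transcripts also shifted one way without passing 2-fold. Of 30 lysosome and autophagy genes 28 were above 0 (25 with total-count scaling), with a median of 0.28, and the proteases CTSA (0.72), CTSD (0.68) and CTSH (0.67) were highest. All 13 protein genes of the mitochondrial genome were above 0 (12 with total-count scaling, ND3 being below), with a median of 0.26 and a range from 0.03 for ND3 to 0.33 for ND6. COX1, the cytochrome oxidase subunit, was at 19539 CPM in control, 25422 in exercise, 24596 in radiation and 24227 in combination, so the exercise library was at the level of the irradiated ones and control was the low library. In the second pair of libraries the mitochondrial median was 0.07. Polyadenylated histone transcripts had a median of 0.75 over 16 genes, with H4C8 and H2BC4 called at 2.54-fold and 2.10-fold, although histone messages are normally not polyadenylated and such counts capture a small part of them.

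Stress pathways outside p53 were close to control. The median was -0.10 over 33 NRF2 target genes, -0.09 over 13 heat shock genes, -0.14 over 24 cholesterol synthesis genes, 0.09 over 26 genes of the ATF4 and unfolded protein responses, -0.09 over 16 NF-kB targets and 0.01 over 29 TGF-beta and mesenchymal genes. The NRF2 pathway is constitutively active in A549. Its abundant targets NQO1 (-0.26), AKR1C1 (-0.43) and TXNRD1 (-0.21) were below 0, whereas GPX2 (0.38) and CBR1 (0.40) were above it. ALDH3A1, an aldehyde dehydrogenase, was the 1 called member, at 590 CPM in control, 770 in exercise, 1436 in radiation and 1238 in combination, or 2.43-fold higher than control (95% counting interval 2.4 to 2.47). HSPA6, a strictly inducible HSP70 gene outside the list, was 4.24-fold lower. Immediate early genes had a median of 0.10 over 29, with EGR1 (3.25-fold), FOSB (2.62-fold) and FOS (2.41-fold) called higher. EGR1 was at 6.38 CPM in control, 27.4 in exercise, 20.8 in radiation and 29.1 in combination, so that the control library was the low one and the exercise library was above the radiation library. MYC was at a log2 ratio of -0.46.

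Most of the lower genes, 154 of 174, lay outside the response lists, and many had few reads. KRT17, a keratin of basal and stressed epithelia, was the most abundant of all 174 lower genes, at 441 CPM in control, 884 in exercise, 185 in radiation and 163 in combination, or 2.39-fold lower than control (95% counting interval 2.32 to 2.46). The basal keratins KRT14 and KRT5 were 2.43-fold and 3.54-fold lower, and the basal transcription factor TP63 had a log2 ratio of -0.49. KRT15, in contrast, had a log2 ratio of 0.87. The fractalkine chemokine CX3CL1 was 2.22-fold lower and the receptor kinase ROS1 2.22-fold, with all 4 libraries ordered by irradiation in both genes. The lowest ratios of all rested on few reads, ECEL1 with 35 reads in control, 46 in exercise, 2 in radiation and 12 in combination and the lipoprotein scavenger receptor OLR1 with 68 reads in control, 14 in exercise, 6 in radiation and 12 in combination. TINAGL1, a matrix protein, was 3.44-fold lower at 614 reads in control, 849 in exercise, 174 in radiation and 116 in combination. PDGFRA had 160 reads in control, 110 in exercise, 72 in radiation and 104 in combination and SAMD11 781 reads in control, 721 in exercise, 312 in radiation and 650 in combination, and in both the combination library was nearer to the unirradiated level.

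Ranked by the change in CPM, which favours long and abundant genes, the order was a different one. The 12 genes with the largest gain supplied 20.1% of all CPM gained, and among them were the mitochondrial genes COX1, ND4, COX3, ATP6 and COX2, the mucins MUC5AC and MUC5B with its overlapping antisense transcript MUC5B-AS1, and CEACAM6, ALDH3A1 and GAPDH. CEACAM6 gained 2894 CPM, from 5074 to 7968, and ALDH3A1 846 CPM. The largest losses were in CYP24A1, the vitamin D-degrading enzyme, which went from 990 to 621 CPM, and in CPLX2, ASPH, ACTG1, AKR1C2, KRT17, AKR1C1, EEF2, PTMA, KRT8, LINC02613 and CHCHD3. Of these 12, only KRT17 was past 2-fold. PTMA, the growth-associated prothymosin alpha, was 1.76-fold lower.

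The share of genes called was counted by gene class, with no test of the differences. At least 2-fold higher were 237 of 14491 protein-coding genes (1.64%) and 96 of 3429 long noncoding RNA genes (2.80%), and lower were 107 (0.738%) and 46 (1.34%). Of 108 snoRNA genes 0 were higher and 2 lower. Uncharacterized LOC loci were 20.8% of the higher genes, 23% of the lower and 12.5% of all genes compared, and shallow genes reach 2-fold more easily by counting error alone. Several LOC loci were higher in both irradiated libraries. LOC112267916 had 271 reads in control, 215 in exercise, 4356 in radiation and 3748 in combination, LOC105379271 505 reads in control, 492 in exercise, 3579 in radiation and 2658 in combination and LOC102723769 204 reads in control, 173 in exercise, 2136 in radiation and 1770 in combination. LINC01666, LOC105379854 and LOC101927209 were 7.64-fold, 11.6-fold and 14.1-fold higher. Counting each group of overlapping called genes once left 338 higher and 164 lower loci.

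Skeletal muscle transcripts gave the 5 largest ratios of the comparison, MYH1, MYH2, MYH4, MYHAS and MYH13. Of 17 compared muscle genes, whose summed level was 163 CPM in control, 182 in exercise, 236 in radiation and 280 in combination, 7 were at least 2-fold higher and 1 lower. The fast myosin heavy chains MYH1, MYH2 and MYH4 had 0, 0 and 1 reads in control and 278, 183 and 485 in radiation. Against the limit that a count of 3 would set in control, MYH1 was at least 95.2-fold and MYH2 at least 62.6-fold higher. The exercise library had 11 to 25 reads of these genes and the combination library 258 to 417. MYHAS, which spans the myosin cluster on the opposite strand, had 7 reads in control, 96 in exercise, 1366 in radiation and 1313 in combination, and its reads cannot be told apart from those of the myosin genes it overlaps. Creatine kinase CKM had 2 reads in control, 11 in exercise, 81 in radiation and 67 in combination. Myosin genes are similar in sequence between paralogs and between mouse and human, and all reads were aligned to the human genome, so host muscle under the flank tumor and muscle genes in tumor cells cannot be told apart. Without muscle genes the calls were 352 higher and 173 lower.

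Other host markers moved by less. The summed level of 14 fibroblast genes was 476 CPM in control, 579 in exercise, 350 in radiation and 303 in combination, and 11 of 12 compared members were below 0 with a median of -0.63. COL1A1 had a log2 ratio of -0.72 and COL3A1 of -0.67. The macrophage and neutrophil list summed to 377 CPM in control and 436 in radiation, but its defining genes C1QA, C1QB, C1QC, TYROBP and S100A8 were at 0 in every library. CD68, which is also a lysosomal protein of other cells, was 2.29-fold higher and LYZ had a log2 ratio of 0.97. Endothelial genes summed to 41.3 CPM in control and 28.7 in radiation, with PECAM1 at -0.93. The keratinocyte list, which holds KRT5 and KRT14, summed to 248 CPM in control and 330 in radiation, of which KRT15 made up 131 and 239, with KRT1 and LORICRIN at 0 everywhere. The part of these cells in the gene lists above was not tested.

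**Figure D4:**
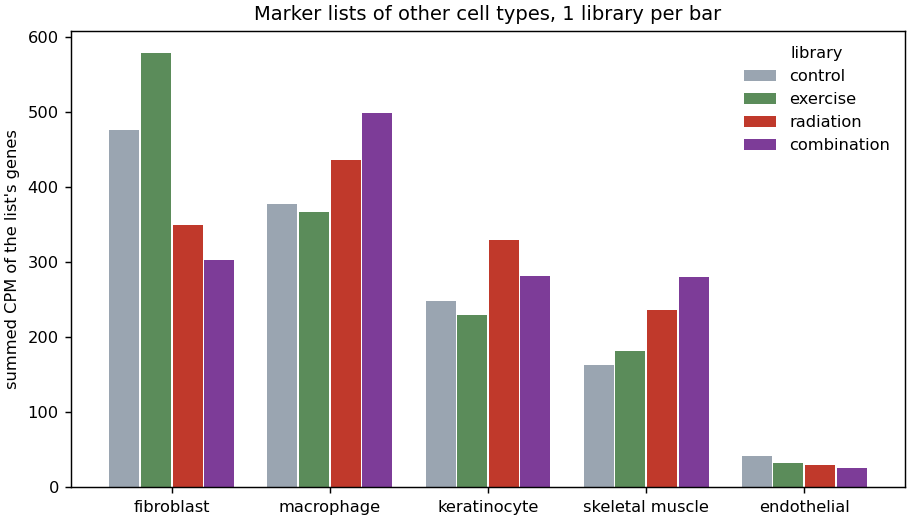
Summed CPM (vertical axis, from 0) of 5 marker lists of other cell types (horizontal axis) in the 4 libraries, 1 library per bar. The fibroblast sum is 476 in control and 350 in radiation, the skeletal muscle sum 163 and 236, and the endothelial sum is at most 41.3 in any library.

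Radiation added to exercise offered a second pair, combination against exercise, that shares no library with radiation against control. There 566 genes passed 2-fold upward (2.92%) and 593 downward (3.06%). Of the radiation-alone calls, 198 higher genes were also higher in the second pair, which is 54.1% of the first list and 35% of the second. The lower lists had 85 genes in common, 48.9% of the first and 14.3% of the second. The sign was the same in 321 of 366 higher genes (87.7%) and in 158 of 174 lower genes (90.8%), and 7 and 1 genes were called the opposite way. Across the 19393 genes the log2 ratios of the 2 pairs had a Pearson correlation of 0.59, and 0.69 over the 15385 genes with a mean of at least 100 reads, as a description over genes that are not independent. The p53 genes were close to the diagonal: 24 of the 25 called were higher in both pairs, and the log2 ratios were 2.43 and 2.36 for CDKN1A, 3.55 and 3.54 for SPATA18 and 1.58 and 1.79 for MDM2. G2/M genes were further down in the second pair, at a median of -1.40 with 47 of 62 lower, and 61 of the 62 had their highest level in the exercise library.

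Counting only genes for which each irradiated library was at least 2-fold above each unirradiated library left 163 genes (0.841%). In the other direction it left 56 genes (0.289%). By definition these genes are all among the 366 higher and the 174 lower genes. Among the higher genes that remained were 24 of the p53 targets of the 4 coding lists, REG4, GAS6, the 3 cystatins, F5, TNFSF9, VTCN1, HLA-B and OAS2, and among the lower ones MKI67, TOP2A, CENPF, KRT17, CX3CL1, ROS1 and TERT. Genes that were called in radiation alone but did not separate the 2 irradiated from the 2 unirradiated libraries included EGR1, FOSB and NECTIN4, an adhesion protein with 76 reads in control, 239 in exercise, 243 in radiation and 210 in combination. Others separated them but by under 2-fold, such as MUC2, ALDH3A1, HK2 and PRODH.

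**Figure D5:**
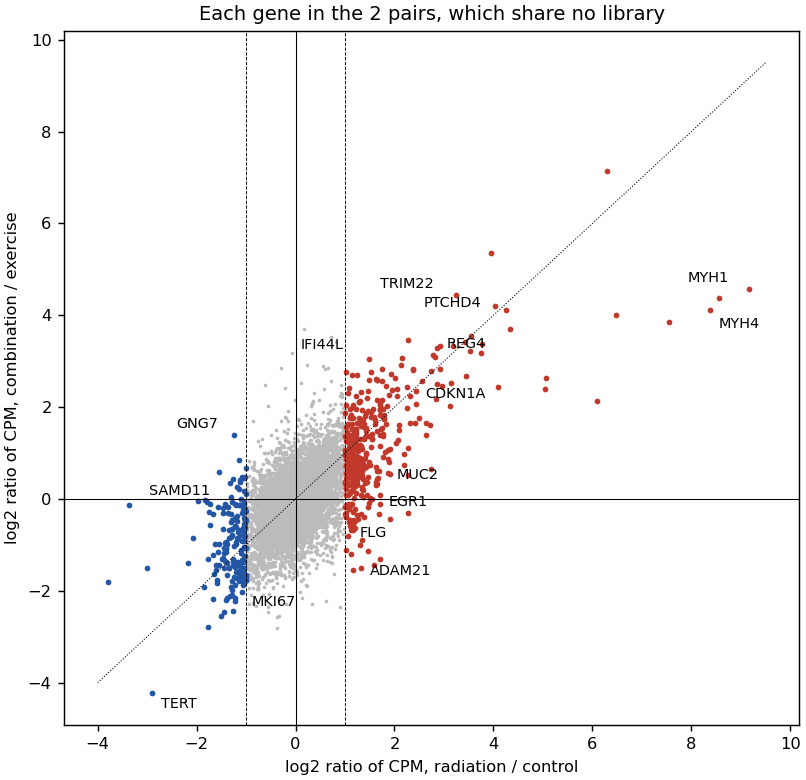
Log2 ratio of radiation to control (horizontal axis) against the log2 ratio of combination to exercise (vertical axis), 1 point per gene compared, with genes at least 2-fold higher in radiation in red and at least 2-fold lower in blue. Of the red points 321 of 366 lie above 0 on the vertical axis and of the blue points 158 of 174 lie below it. The muscle genes MYH1 and MYH4 lie below the dotted diagonal and the exercise library held 11 and 25 of their reads.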

How the data were processed

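RNA sequencing of A549 xenografts was deposited as 1 file per library. The authors prepared polyA-selected TruSeq Stranded mRNA libraries, sequenced pairs of 100 nt, trimmed adapters with cutadapt, aligned to GRCh38 with Bowtie2 2.3.4.1, which does not split reads over introns, and counted with featureCounts 1.6.0. Whether counting used the strand is not given in the sources used here. Read counts per gene and the authors' FPKM values were deposited side by side. The FPKM values were used only as an alternative.

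The counts of the 4 libraries were joined on gene identifier. Genes with a mean of at least 20 reads were kept, and CPM was computed with TMM factors from edgeR 4.0.16 (R 4.3.3). Ratios used a prior count of 0.5, and their 95% intervals come from the counts of the 2 libraries and cover counting error only. Where control had 0 reads, the bound used 3 reads. Radiation against control has 1 library a side and hence no test, and no model over all 4 libraries was fitted, so calls are ratios of at least 2-fold. The ratio code was tested on simulated counts. Python 3.11.15, numpy 2.4.6, pandas 2.3.3 and scipy 1.17.1 were used, and promoters came from the RefSeq table for GRCh38.p14.

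The comparison, the gene lists and the markers were chosen with earlier results of these data known, so counts within a list are descriptions. Named by rule were the 20 highest and 20 lowest genes, the 12 largest gains and losses in CPM, the 4 highest and 4 lowest members and all called members of each list, the genes at the read minimum and the marker genes. Other genes were named for their known role or after their values were seen. Alternatives were DESeq2 1.42.0 size factors, total counts, other minimums and prior counts, FPKM with 0.1 added, and protein-coding genes alone. Leaving out muscle genes, merging overlapping genes, requiring the whole interval past 2-fold and TMM over all genes were added after seeing the data. Values of some genes are not reported here.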

Additional observations from a re-analysis of the deposited data

Results flagged for a closer look

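The named genes and the genes called in radiation against control were searched for opposite differences in the 2 pairs. In 14 of them the counting intervals of the 2 pairs lay on opposite sides of no change and the log2 ratios were at least 1 apart. Other genes were not searched. The difference was not tested, since each library is single. The log2 ratio in radiation against control was positive and that in combination against exercise negative for ADAM21 (1.32 and -1.51), C5orf46 (1.12 and -1.19), the lncRNA CLMAT3 (1.6 and -1.44), KCNMA1-AS1 (1.30 and -1.0) and FLG, which encodes the skin barrier protein filaggrin (1.12 and -0.51). The same held for FAP, a protease of activated fibroblasts (0.89 and -0.90), LOC105372424 (1.24 and -0.34), LOC105373579 (1.02 and -1.11), LOC105374464 (1.70 and -1.32), LOC105379752 (1.47 and -1.13) and LOC107986431 (1.16 and -1.56). The order was reversed for GNG7, a G protein gamma subunit (-1.25 and 1.39), HES7, a segmentation clock repressor (-1.14 and 0.85), and HLA-G (-0.79 and 0.61).

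Below the read minimum, 5 genes had a counting interval above 2-fold in both pairs. FABP1, the liver fatty acid binding protein, had 1 read in control and 15 in radiation. MYOZ1, a muscle Z-disc protein, had 0 and 9. LOC105378287 had 4 and 24, LOC105369611 had 0 and 9, and LOC107985706 had 2 and 26.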

How the results depend on the processing

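No paired analysis was possible because radiation and control had 1 library each. A fit of irradiation over all 4 libraries, with exercise as a term, was not made. Of 362 named genes, 19 changed sign with total counts and 17 with FPKM, each with a log2 ratio of at most 0.07 in size, and 0 with DESeq2 size factors or either prior count. All 362 stayed within their counting interval with DESeq2 size factors and both prior counts, 269 with total counts and 185 with FPKM. The number of genes called depended on the setting. With no minimum 3187 were higher and 2868 lower, with a minimum mean of 100 reads 166 and 55, with FPKM 117 and 43, among protein-coding genes 237 and 107, and with the whole interval past 2-fold 166 and 24. At a minimum of 100, combination against exercise gave 305 higher and 292 lower, of which 120 and 47 were called in both pairs, and 102 and 31 genes had both irradiated libraries 2-fold outside both unirradiated ones. The p53 repair and metabolism list had 3 higher genes with total counts and 3 with FPKM, the G2/M list 7 lower genes with FPKM, and the muscle list 4 higher genes at a minimum of 100. The causes were not tested, apart from the fewer genes a higher minimum leaves. DESeq2 size factors gave 363 higher and 174 lower, and total counts 314 and 231. Depth limits the lower genes most, with a median mean count of 47.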

Other observations

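The share of genes called was counted by chromosome. On chromosome 18, 10 of 251 compared genes were at least 2-fold higher (3.98%), of which CLUL1, LOC105371952 and TYMSOS have overlapping spans, on chromosome 1 49 of 1828 (2.68%) and on chromosome 22 4 of 444 (0.901%). Chromosome 9 had 10 higher and 0 lower genes of 761. No test was made of these shares.

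In the 90 compared p53-induced coding genes, the combination library had the highest level in 63 and the radiation library in 18, and the control library had the lowest level in 46 and the exercise library in 35.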
